A study of Bos taurus with 15 samples.

Results

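The most abundant transcripts in PWBC, the peripheral white blood cells, of weaned beef heifers were described gene by gene. The genes were selected on their level: all 12270 genes of the normalized table were ranked by their mean CPM (the reads of a gene scaled to a common library total) over 15 heifers, the 100 highest were taken, and 10 of these were then left out because their results are not reported here. The remaining 90 genes, called members from here on, are 0.733% of the genes in the table. The animals were Angus-Simmental crossbred heifers bled at weaning and grouped afterwards by pregnancy outcome. After artificial insemination (AI) and then exposure to bulls, 8 were pregnant to AI (heifers 4, 6, 34, 40, 41, 43, 45 and 47) and 7 not-pregnant (heifers 3, 33, 37, 39, 42, 44 and 48). Breeding came after the blood was taken and did not differ between the groups, and heifers that conceived to a bull were not included. Each heifer gave 1 library from the white cells of the buffy coat after red cells were lysed, so the heifer was the replicate.

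White blood cells in blood are a mixture of neutrophils, lymphocytes, monocytes and rarer cells, and their RNA is dominated by a small set of transcripts. In leukocytes in general these include transcripts for the protein synthesis machinery, the actin cytoskeleton that moves the cell, antigen presentation and iron storage, and genes that respond quickly to handling or stress. A read count reports what part of a library a gene takes, so a rise of 1 abundant gene lowers the share left for all others. No table used here links the Ensembl IDs to gene names, so it is not given which members belong to which of these functions, and members are named by their abundance rank, with 4 of them also by ID. For the same reason the labelled cell type was not checked against marker genes, and with mixed cells a lower count can mean fewer cells of a type or less RNA per cell, which cannot be told apart here.

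Depth was 15987111 to 24909038 counts per heifer, so counting error was small beside the spread between heifers for genes this abundant. No pair of libraries within a group agreed within counting error, the lowest chi-square of such a pair being 35.8 per degree of freedom. Normalization factors for library composition (TMM) lay between 0.916 and 1.14 in heifers pregnant to AI and between 0.842 and 1.06 in not-pregnant heifers. Heifers 4 and 37 lay nearer to the other group in earlier results of these data, and the results that turned on them are given with and without them.

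Members had a mean of 1126 to 22011 CPM over the 15 heifers, against a median of 26.1 CPM over all 12270 genes, and together they held a mean of 20.4% of the counts. CPM is not corrected for transcript length, so the ranks order genes by reads and not by molecules. The limit of the selection lay in a continuous range of levels. The last members had means of 1142, 1133 and 1126 CPM (ranks 98, 99 and 100), and the genes just outside had 1125, 1119 and 1118 CPM (ranks 101, 102 and 103).

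The members held a smaller share of the counts in heifers pregnant to AI. Their share in this group was lowest in heifer 43 at 14.8%, had a median of 18.9% and was highest in heifer 4 at 22.1%. In not-pregnant heifers the lowest share was 19.3% in heifer 37, the median 22.8% and the highest 26.7% in heifer 48. The groups overlapped, because heifer 4 lay above not-pregnant heifers 33 and 37, and heifer 40, at 19.3%, lay level with heifer 37. On average the share was 18.5% ± 2.10 (SD, n = 8) against 22.7% ± 2.29 (SD, n = 7), a difference of -4.22 percentage points, given as a description without a test because the share was known when the genes were chosen. Without heifers 4 and 37 the difference was -5.32 points, and without heifers 43 and 48, which held the lowest and the highest share and were left out only after this was seen, it was -3.04 points.

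**Figure D1:**
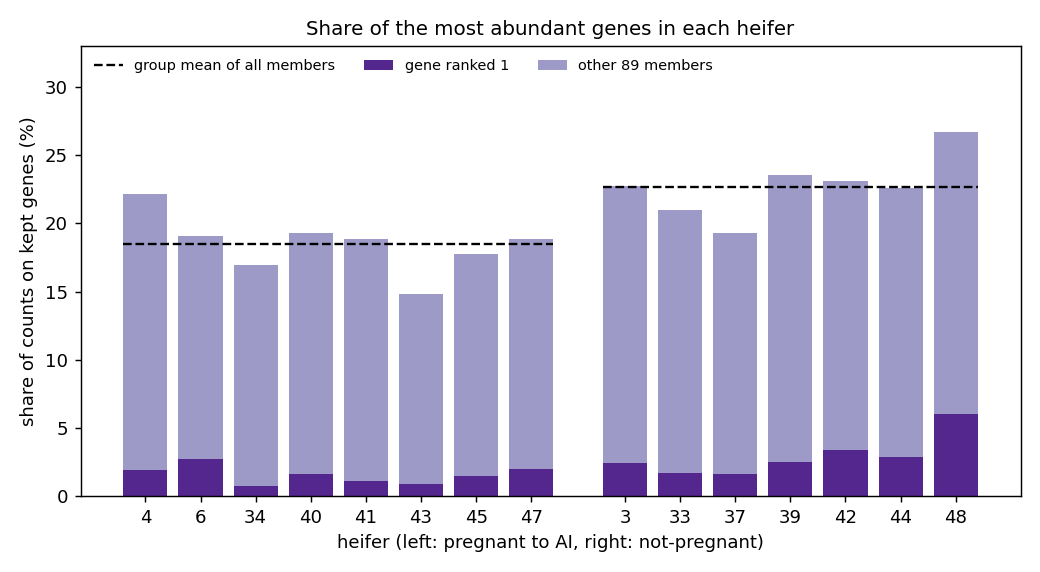
Share of counts on kept genes (y axis, %) held by the 90 members in each heifer (x axis), with the gene ranked 1 as the dark part of the bar, the other members as the light part, and the mean of all members in each group as a dashed line. The dashed lines stand at 18.5% and 22.7%, and heifer 48 has both the tallest bar and the largest dark part.

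With the 10 genes put back, the share of the 100 genes was 23.9% ± 3.51 (SD, n = 8) with pregnancy to AI against 27.4% ± 2.24 (SD, n = 7) without, a difference of -3.53 points. The 10 genes as a sum went the opposite way, with a share 0.691 points higher in heifers pregnant to AI. Their share was less even among heifers pregnant to AI, at 5.43% ± 1.94 (SD, n = 8) against 4.74% ± 0.566 (SD, n = 7). It ran from 3.38% in heifer 43 to 9.16% in heifer 6, and the not-pregnant range of 4.14% to 5.83% lay within this. The medians were 5.09% and 4.64%.

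Most members took part in the lower share, but a few carried most of its size. In mean CPM, 73 of the 90 members were lower and 17 higher with pregnancy to AI. Drop or rise is used below for the sign of this difference, whether or not the gene passed a test. The drops added up to -4.98 percentage points and the rises to 0.753 points. The gene ranked 1 alone held 27.4% of the summed drops (20.3% without heifer 48), the 5 members with the largest drops held 49.9%, the 10 largest 59.8% and the 20 largest 71.1%. Beyond these the difference was spread thinly, as 45 members were needed to reach 90% of the summed drops.

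**Figure D2:**
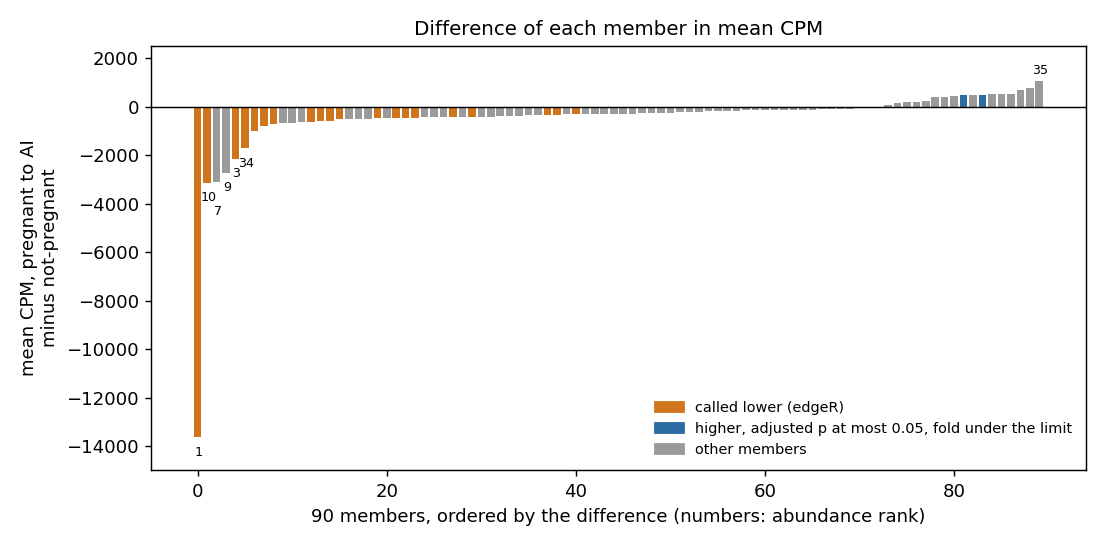
Difference in mean CPM between groups for each of the 90 members (y axis, pregnant to AI minus not-pregnant), ordered from the largest drop to the largest rise (x axis), with members called lower in orange, the 2 members higher at an adjusted p of at most 0.05 in blue, and the abundance rank written beside the 6 largest drops and the largest rise. The bar of the gene ranked 1 reaches -13649 CPM (-8539 CPM without heifer 48), no other bar passes -3154 CPM, and the largest rise is 1071 CPM for the gene ranked 35.

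The most abundant member, ENSBTAG00000043570, was also the one with the largest drop. In heifers pregnant to AI it lay between 7808 CPM (heifer 34) and 26984 CPM (heifer 6), with a median of 15374 CPM. In not-pregnant heifers it lay between 16382 CPM (heifer 37) and 59951 CPM (heifer 48), with a median of 25067 CPM. The groups overlapped, although 7 of the 8 heifers pregnant to AI were under the not-pregnant median, and heifer 48 stood far above heifer 42, the next highest at 33542 CPM. Its means were 15642 ± 6433 CPM (SD, n = 8) and 29291 ± 14785 CPM (SD, n = 7), and its log2 fold change was -1.08 (SE 0.34, edgeR adjusted p = 0.0495). That call was at the limit of the threshold and was lost when any 1 of 12 heifers was left out, the exceptions being heifers 4, 6 and 37, and without heifer 48 the log2 fold change was -0.75 (adjusted p = 0.134). The not-pregnant mean was then 24181 ± 6555 CPM (SD) and the drop -8539 CPM in place of -13649 CPM, still the largest of the members, ahead of -2688 CPM for the gene ranked 7. The summed share of the other 89 members still differed by -2.86 points, at 16.9% ± 1.79 (SD, n = 8) against 19.8% ± 1.12 (SD, n = 7).

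The gene ranked 10 followed with the second largest drop. It ranged from 1561 CPM (heifer 43) to 5754 CPM (heifer 4) in heifers pregnant to AI, with a median of 2652 CPM, and from 3558 CPM (heifer 37) to 11574 CPM (heifer 48) in not-pregnant heifers, with a median of 5167 CPM. As with the gene ranked 1, heifer 48 was the highest of all 15 and 7 of 8 heifers pregnant to AI were under the not-pregnant median. Its log2 fold change was -1.19 (SE 0.34, edgeR adjusted p = 0.0387), called without heifer 4, 6, 37 or 40 in turn and not without any of the other 11.

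The gene ranked 3 fell by less for its level but with tighter groups. Its values in heifers pregnant to AI had a minimum of 4885, a median of 6515 and a maximum of 9500 CPM, and those in not-pregnant heifers a minimum of 6931, a median of 9099 and a maximum of 10544 CPM. Heifer 4, with the maximum of its group, was the only heifer pregnant to AI above the not-pregnant median, and heifer 37 had the minimum of the other group. The log2 fold change was -0.56 (SE 0.17, edgeR adjusted p = 0.0475), and the call held without heifer 4 or heifer 37 and was lost without any of the other 13.

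The gene ranked 34 had the most negative log2 fold change of the members. It lay between 568.1 CPM (heifer 6) and 2847 CPM (heifer 4) in heifers pregnant to AI, with a median of 1312 CPM, and between 1280 CPM (heifer 37) and 4920 CPM (heifer 3) in not-pregnant heifers, with a median of 2511 CPM. The groups overlapped through heifers 4 and 37 and through the lower of the not-pregnant values. Its log2 fold change was -1.34 (SE 0.39, edgeR adjusted p = 0.0394), called without heifer 4, 33 or 37 in turn and not without any of the other 12.

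Some of the largest drops did not pass the test, and in these heifer 4 stood apart from its group. The gene ranked 7 lay between 1541 and 3652 CPM in 7 heifers pregnant to AI, but at 9186 CPM in heifer 4, and between 2609 CPM (heifer 37) and 9632 CPM (heifer 3) in not-pregnant heifers. Its means were 3390 ± 2426 CPM (SD, n = 8) and 6516 ± 2572 CPM (SD, n = 7), with a log2 fold change of -1.09 (SE 0.40, edgeR adjusted p = 0.0764). Without heifer 4 the log2 fold change was -1.57 (adjusted p = 0.00448).

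The gene ranked 9 had the same arrangement of heifers and the highest spread of the members. Heifer 4 reached 10547 CPM, above every other heifer, while the other 7 heifers pregnant to AI lay between 1187 and 3608 CPM and the not-pregnant heifers between 1806 CPM (heifer 37) and 8623 CPM (heifer 48). Its log2 fold change was -1.01 (SE 0.48, edgeR adjusted p = 0.145), and -1.67 without heifer 4 (adjusted p = 0.0052). The gene ranked 99 also had heifer 4 apart from its group, at 2231 CPM against at most 948 CPM in the others, with a log2 fold change of -1.02 (edgeR adjusted p = 0.0869) and of -1.51 without heifer 4 (adjusted p = 0.00447). Heifer 4 was left out here because of its values, so these last figures show how far 1 heifer moves the result and are not independent evidence of a drop.

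**Figure D3:**
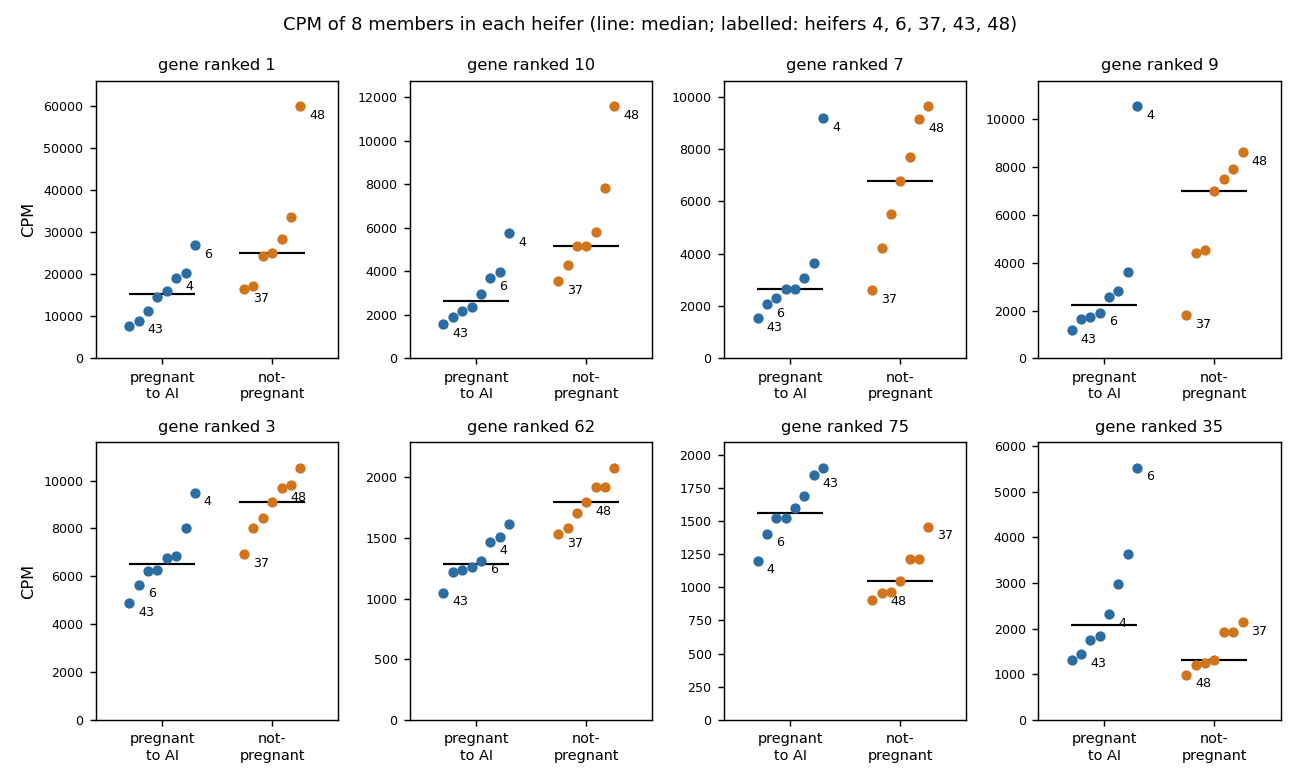
CPM of 8 members (y axis, from 0 in each panel) in the heifers of each group (x axis), 1 point per heifer in order of value with the group median as a line and heifers 4, 6, 37, 43 and 48 labelled. Heifer 48 stands at 59951 CPM for the gene ranked 1, heifer 4 at 10547 CPM for the gene ranked 9 and heifer 6 at 5532 CPM for the gene ranked 35, each above the rest of its group.

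Other members had smaller drops and less spread than the genes above, and among these were the lowest adjusted p-values. Called members were not those with the lowest spread, as their lowest coefficient of variation of CPM was 17.57%, against a member median of 17.65%. ENSBTAG00000000622, ranked 62, lay between 1050 CPM (heifer 43) and 1613 CPM (heifer 41) in heifers pregnant to AI, with a median of 1288 CPM, and between 1533 CPM (heifer 37) and 2081 CPM (heifer 42) in not-pregnant heifers, with a median of 1796 CPM. All 8 heifers pregnant to AI were under the not-pregnant median, and 7 of them were under every not-pregnant heifer. Its log2 fold change was -0.58 (SE 0.13, edgeR adjusted p = 0.0230), and it was called in 10 of the 15 fits that each left out a heifer, more than any other member. The 5 fits without the call had an adjusted p of at most 0.0572 and left out heifer 34, 39, 42, 45 or 48.

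The genes ranked 42 and 51 were of the same kind. The gene ranked 42 had a mean of 1635 ± 242 CPM (SD, n = 8) with pregnancy to AI against 2230 ± 284 CPM (SD, n = 7) without, with a log2 fold change of -0.61 (SE 0.14, edgeR adjusted p = 0.0256). The gene ranked 51 had 1500 ± 163 CPM (SD, n = 8) against 1965 ± 216 CPM (SD, n = 7), with a log2 fold change of -0.55 (SE 0.12, edgeR adjusted p = 0.0268). Each was called in 9 of the 15 fits without a heifer, and in each all 8 heifers pregnant to AI were under the not-pregnant median. Unless stated, log2 fold changes include the TMM factors, while CPM values do not. On library size only they were -0.45 for the gene ranked 42, -0.39 for the gene ranked 51 and -0.43 for the gene ranked 62. These lay under 0.5 in size, the limit for a call, so none of these genes was called.

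Over all members, edgeR called 20 of the 90 lower in heifers pregnant to AI, which is 22.2% of them, against 2.19% of the 12270 genes tested. The set was chosen with its lower share known, and 4 of the 20 (ranks 83, 86, 90 and 97) had a mean in heifers pregnant to AI under the lowest member mean of 1126 CPM, so they entered the selection through the not-pregnant group and the comparison of these shares is no independent evidence. The other 16 had both group means above it. The limits for a call were 0.05 for the p-value after Benjamini-Hochberg adjustment and 0.5 for the size of the log2 fold change. The 20 ranged from rank 1 to rank 97, with log2 fold changes of -1.34 to -0.50 and edgeR adjusted p-values of 0.0230 to 0.0495. Between them they held -2.93 points, or 58.8% of the summed drops. In 13 of the 20, and in 28 of all 90 members, every heifer pregnant to AI lay under the not-pregnant median. The share of all genes with this arrangement was not computed. No member was called higher by edgeR, against 3.66% of all genes called higher, and at an unadjusted p under 0.05 in edgeR there were 70 members, against 34.4% of all genes. DESeq2 called 21 members lower and 0 higher, with 20 shared, against 3.82% and 5.27% of all genes. At an edgeR adjusted p of at most 0.05 without a limit on the fold there were 49 members lower and 2 higher, against 5.81% and 6.34% of all genes.

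These calls were close to the threshold and changed with single heifers. No member was called when heifer 34, 39, 42, 45 or 48 was left out. Only 0.0489% to 0.13% of all genes were called lower in those 5 fits. At an unadjusted p under 0.05 in edgeR, in either direction, there were 64 to 72 members, against 26.5% to 31.8% of all genes. Leaving out heifer 47 left 2 calls, heifer 43 left 4, heifer 3 left 6 and heifer 33 left 12. Leaving out heifer 37 gave 36 calls, heifer 4 gave 39, and both together gave 46, among them all 20. Calls over all genes moved alongside, to 5.93%, 8.32% and 10.5% lower, so the movement was not particular to the members. With 1 surrogate variable as a covariate no member was called, and 27 had an unadjusted p under 0.05, against 9.39% of all genes. Heifers 4 and 37 had been picked for their position between the groups, so these larger counts are not independent evidence.

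The direction of the members varied less than the calls did. A log2 fold change below 0 was found for 76 of the 90 members (84.4%), against 47.9% of all genes, and for 75 to 78 members when each heifer was left out. The set was chosen with its lower share known. The mean in heifers pregnant to AI was under the lowest member mean for 12 members, and the not-pregnant mean for 5. The direction of the members is therefore no independent evidence. The median log2 fold change of the members was -0.40, against 0.01 over all genes. Without the TMM factors, with library size only, the median of all genes moved up by 0.16 on the log2 scale to 0.18, and the median of the members was -0.23. Relative to the median of all genes the members were at -0.41 with either scaling. A scaling factor shifts all genes of a library alike, so this agreement was fixed in advance and is no support. With 1 surrogate variable, which can move this distance, the median was -0.17 for members and -0.0054 for all genes. The calls did depend on the scaling, with 2 members called lower and 2 higher on library size only, against 0.782% and 7.47% of all genes.

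The lower values were graded with abundance. Called lower were 22.2% of the members, 6.25% of the 400 genes ranked 101 to 500, 2.93% of the 1500 genes ranked 501 to 2000, 1.75% of the 4000 genes ranked 2001 to 6000 and 1.74% of the 6270 genes ranked below those. The median log2 fold change in the same order was -0.40, -0.16, -0.03, 0.00 and 0.07. Calls in the other direction went the opposite way, from 0 members to 5.45% of the least abundant genes. The median SE of the log2 fold change in the same order was 0.13, 0.11, 0.097, 0.10 and 0.19. The shares called were thus obtained at unlike precision.

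Among the 17 members with a higher mean CPM in heifers pregnant to AI, the differences were of unlike size and spread. ENSBTAG00000012683, ranked 75, had a coefficient of variation (CV) of CPM of 23.7% over the 15 heifers. It lay between 1202 CPM (heifer 4) and 1904 CPM in heifers pregnant to AI, with a median of 1561 CPM, and between 901 CPM and 1457 CPM (heifer 37) in not-pregnant heifers, with a median of 1046 CPM. All 8 heifers pregnant to AI were above the not-pregnant median, although heifer 4 was under heifer 37. The log2 fold change was 0.35 (SE 0.091, edgeR adjusted p = 0.0317), under the fold limit, so it was not called.

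ENSBTAG00000009389, ranked 73, had a CV of 22.2%. It lay between 1160 CPM (heifer 4) and 1725 CPM (heifer 45) in heifers pregnant to AI, with a median of 1620 CPM, and between 782 CPM (heifer 48) and 1474 CPM in not-pregnant heifers, with a median of 1083 CPM. Here too all 8 heifers pregnant to AI were above the not-pregnant median, and the log2 fold change was 0.34 (SE 0.087, edgeR adjusted p = 0.0313). These 2 were the only members higher at an adjusted p of at most 0.05 in edgeR and were named for that after their values were seen. Both had a not-pregnant mean under the lowest member mean, so they entered the selection through the heifers pregnant to AI.

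The largest rise, of the gene ranked 35, was uneven. It lay between 1320 and 5532 CPM in heifers pregnant to AI, with a median of 2078 CPM and its maximum in heifer 6, and between 987 and 2142 CPM in not-pregnant heifers, with a median of 1301 CPM. All heifers pregnant to AI were above the not-pregnant median, but the log2 fold change of 0.64 had an SE of 0.30 and an edgeR adjusted p of 0.144. The gene ranked 40 had its maximum in the same heifer, at 4221 CPM, and differed by 518 CPM in the mean, with a log2 fold change of 0.25 (edgeR adjusted p = 0.494). Without heifer 6, left out because of its values, the log2 fold change of the gene ranked 35 was 0.37 (edgeR adjusted p = 0.291). That of the gene ranked 40 was then 0.036 (edgeR adjusted p = 0.919), so the size of both rises leaned on 1 heifer.

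The other large rises did not pass the test either. The gene ranked 26 had a mean of 3040 ± 617 CPM (SD, n = 8) against a not-pregnant mean of 2257 ± 497 CPM (SD, n = 7), with a log2 fold change of 0.27 (edgeR adjusted p = 0.119). The gene ranked 17 differed by 700 CPM with a range of 1492 to 5439 CPM within heifers pregnant to AI (edgeR adjusted p = 0.721). The gene ranked 11 differed by 523 CPM, and its log2 fold change of 0.03 changed sign with the heifers left out (edgeR adjusted p = 0.954). In 3 of the 17 members, among them the gene ranked 5, the mean CPM was higher but the TMM-scaled log2 fold change was below 0.

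**Figure D4:**
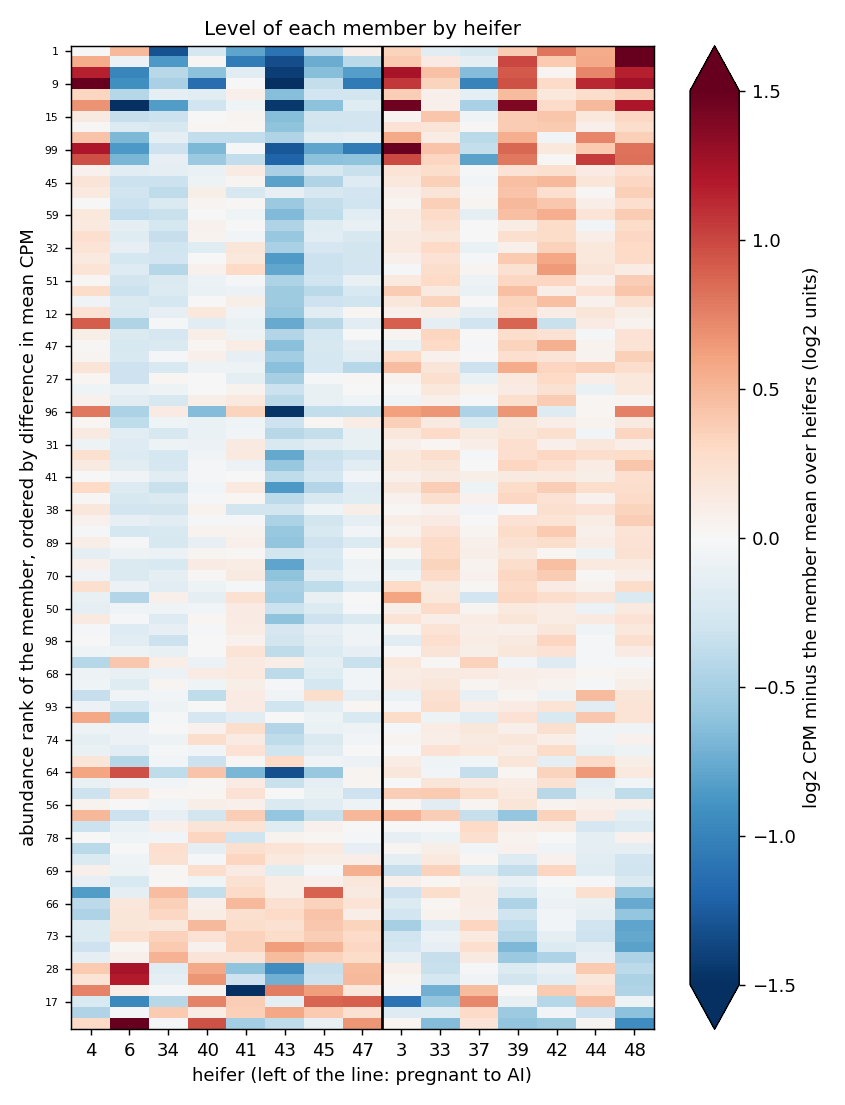
Level of each member in each heifer as log2 CPM minus the mean of that member over 15 heifers (colour, log2 units, cut at 1.5 either way), with heifers on the x axis (pregnant to AI left of the line) and members on the y axis from the largest drop at the top to the largest rise at the bottom, some ranks written. Heifer 43 is the lowest of all 15 for 60 of the 90 members, and heifers 4 and 37 depart from their groups for the wide-ranging members near the top.

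The heifers differed in how many members they held at a high level. Heifer 43 was the lowest of all 15 for 60 of the 90 members, and heifer 42 was the highest for 22, followed by heifer 48 for 11 and heifers 33 and 39 for 9 each. Counted as members above their own median over the 15 heifers, not-pregnant heifers had 56 to 69 of 90, except heifer 37 with 34. Heifers pregnant to AI had 11 to 31, except heifer 4 with 46 and heifer 41 with 49. Heifers 4 and 37 departed from their groups in this count as well as in single genes, but the count did not single them out, as heifer 41 departed too.

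The spread per gene was low for most members and wide for a few. The CV of CPM over the 15 heifers had a median of 17.6% and ranged from 7.57% for the gene ranked 49 to 67.1% for the gene ranked 9, against a median of 22.2% over all genes. Within groups the medians were 13.7% for members and 19.9% for all genes. After division by the TMM factor the order turned, with a median CV of 22.9% for members and 20.2% for all genes, so that whether members varied less than other genes depended on the scaling. The highest heifer was under 2-fold of the lowest for 51 members, and at least 3-fold for 16.

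**Figure D5:**
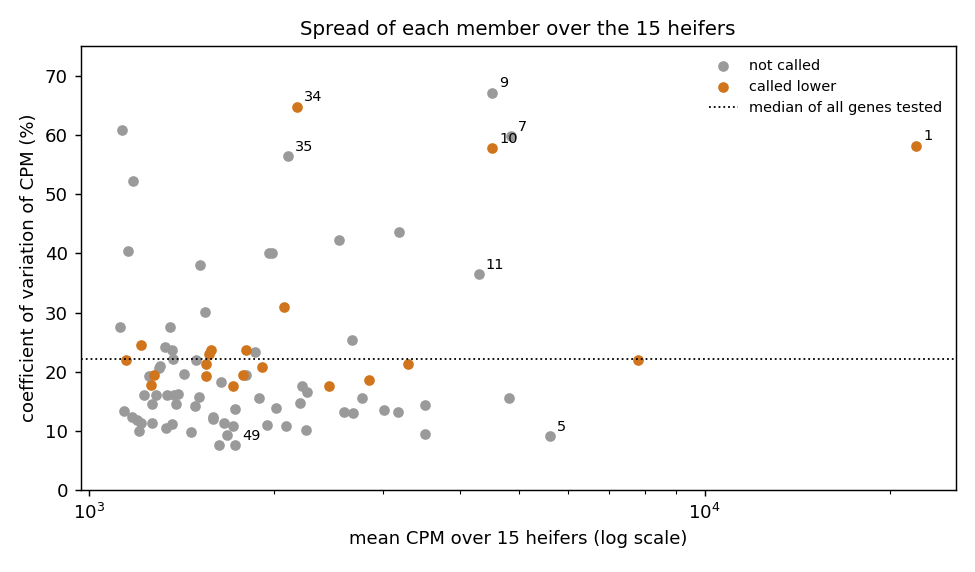
Coefficient of variation of CPM over 15 heifers (y axis, %) against mean CPM (x axis, log scale) for each of the 90 members, with those called lower in orange, the rest in grey, the median of all genes as a dotted line and some ranks written. Members range from 7.57% to 67.1%, and 28 of the 90 lie above the median of all genes of 22.2%.

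The 16 members with at least a 3-fold range carried much of the share difference. Of these, 10 were lower and 6 higher in mean CPM in heifers pregnant to AI, and they held 53.6% of the summed drops and 47.0% of the summed rises. Of the 16, 3 were called, the genes ranked 1, 10 and 34. Of the 51 members with under a 2-fold range, 47 were lower in mean CPM, with drops of -1.43 points in all, and 6 were called. The remaining 23 members, between these limits, held 11 calls. Over all members 22.2% were called lower, against 2.19% of all genes, and the share among all genes of like range was not computed.

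The wide-ranging members fell into more than 1 arrangement of heifers, described here after their values were seen and without a test. The genes ranked 7, 9, 34 and 94 had their 5 highest values in heifers 3, 4, 39, 44 and 48, and their lowest in heifer 43 or, for the gene ranked 34, heifer 6. The gene ranked 94, for example, had 2061 CPM in heifer 3, 2027 CPM in heifer 4, 2147 CPM in heifer 44 and 452 CPM in heifer 43. The genes ranked 28, 35, 40 and 64 had their maximum in heifer 6, at 5607, 5532, 4221 and 2751 CPM. The genes ranked 1 and 10 had their maximum in heifer 48. The gene ranked 11 stood by itself, with 766 CPM in heifer 41 and at least 2361 CPM in every other heifer.

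On unscaled CPM the lowest CVs were those of the genes ranked 49, 56, 5, 53 and 13. After division by the TMM factor the lowest were those of the genes ranked 95 (6.62%), 5 (7.33%), 58 (9.91%), 57 (12%) and 46 (12.1%), while the genes ranked 49, 56, 53 and 13 moved from the range of 7.57% to 9.46% to that of 13.7% to 16.2%. The gene ranked 49 lay between 1436 and 1826 CPM in heifers pregnant to AI and between 1700 and 1934 CPM in not-pregnant heifers, with a log2 fold change of -0.30 (edgeR adjusted p = 0.0356). The gene ranked 5, at a mean of 5599 CPM, ranged only from 4753 to 6521 CPM over all heifers, a CV of 9.10%. Its group means were 5692 ± 596 CPM (SD, n = 8) and 5493 ± 407 CPM (SD, n = 7), a difference within the spread between heifers. With the TMM factors the direction was the opposite, at a log2 fold change of -0.11 (edgeR adjusted p = 0.320).

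In 2 members, named after their values were seen, every heifer pregnant to AI was below every not-pregnant heifer, an arrangement found for 0.0652% of all genes. The gene ranked 41 lay between 1485 and 1940 CPM in heifers pregnant to AI and between 2038 and 2300 CPM in not-pregnant heifers. The gene ranked 71 lay between 1041 and 1397 CPM and between 1428 and 1699 CPM. Both had a small fold, with log2 fold changes of -0.40 (edgeR adjusted p = 0.0335) and -0.49 (edgeR adjusted p = 0.0273), so neither was called.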

How the data were processed

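Reads of 15 PWBC libraries were aligned with STAR 2.7.5 to the ARS UCD1.2 genome by the authors, who deposited whole-number raw counts per gene. The deposited CPM values were computed by the authors with edgeR 3.28.1 and equalled the raw counts divided by the total on the 12270 genes kept, on the CPM scale, without a composition factor. Heifers were grouped by the pregnancy outcome in the labels, which call the second group not pregnant to AI where the paper calls it not-pregnant.

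Members, lists and tests were chosen with earlier results of these data known. All kept genes (CPM of at least 1 in at least 8 heifers) were tested on raw counts in edgeR 4.0.16 by quasi-likelihood (R 4.3.3, TMM, pregnancy status only, Benjamini-Hochberg over all genes), and only members are printed. The study used DESeq2 at the same limits, with an adjustment its abstract names Bonferroni. DESeq2 is an alternative here (1.42.0, Benjamini-Hochberg). It called more genes than the study reported, so the calls printed here are not those of the study. Other alternatives were limma-voom, limma on log2(CPM + 1) (limma 3.58.1), other normalizations and filters, 1 surrogate variable (sva 3.50.0), other member sets and denominators, and each heifer left out. The scripts were tested on simulated counts. Differences in CPM are pregnant to AI minus not-pregnant, and SD is over heifers.

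Named members were those with the 10 highest means, the 10 largest drops and 5 largest rises, all called members, and the 5 largest and 5 smallest CVs. The genes ranked 73 and 75, higher at an adjusted p of at most 0.05, were added after their values were seen. In all 4 members are printed by ID. The gene lists and cell type markers planned were not applied, because IDs are not paired with gene names here, and no sequence or position is given. Genes sharing reads with a similar gene have uncertain counts.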

Additional observations from a re-analysis of the deposited data

Results flagged for a closer look

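Values were checked in 82 sets, each of 1 named member, or 1 of 4 summed shares, in 1 group. In 8 of them the highest or lowest heifer stood far from the rest of its group. Chance gives about 1 in 20 for unselected, independent sets. Named members were picked partly for their spread and differences, and the sets share heifers. That rate therefore does not apply here, and no excess over chance is read from the 8. Heifer 4 was the distant heifer in 5 of the 8, all in the group pregnant to AI. It was the highest for the gene ranked 7 at 9186 CPM (next 3652 CPM), the gene ranked 9 at 10547 CPM (next 3608 CPM), the gene ranked 37 at 2677 CPM (next 1816 CPM) and the gene ranked 99 at 2231 CPM (next 948 CPM), and the lowest for the gene ranked 73 at 1160 CPM (next 1549 CPM). Heifer 48 was the highest not-pregnant heifer for the gene ranked 1 at 59951 CPM (next 33542 CPM). Among heifers pregnant to AI, heifer 41 was the lowest for the gene ranked 11 at 766 CPM (next 3846 CPM), and heifer 43 for the gene ranked 13 at 2806 CPM (next 3249 CPM).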

How the results depend on the processing

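The lower summed share kept its direction under every alternative run, while the number of members called did not. The 20 members called lower (2.19% of all genes) became 49 without a fold limit (5.81%), 4 with limma on log2(CPM + 1) (0.742%), 2 on library size only (0.782%), 11 without a filter (0.675%), 0 with 1 surrogate variable (0 genes in all; 27 members had an unadjusted p under 0.05, and no DESeq2 fit used this covariate), 46 without heifers 4 and 37 (10.5%), and 0 to 39 with each heifer left out (0.0489% to 8.32%). Members called higher numbered 2 without a fold limit, 4 with limma on log2(CPM + 1) and 2 on library size only, under the 6.34%, 6.88% and 7.47% of all genes. The median log2 fold change was -0.17 with the surrogate variable. The difference in share was -6.65 points with CPM divided by the TMM factor, -1.30 points without the 20 called members (added after the data were seen), and -4.79 to -3.56 points with each heifer left out. Lower in mean CPM were 34 of 42 members of the top 50 and 137 of 188 of the top 200. The median CV was 22.9% with the TMM factor. Of the named members, 4 changed sign, none of them called. The gene ranked 5 was at 0.048 with limma on CPM and at 0.052 on library size only, the gene ranked 9 at 0.014 and the gene ranked 26 at -0.000955 with the surrogate variable. The gene ranked 11 was at -0.15 with limma-voom, at -0.057 without heifers 4 and 37, and from -0.11 to 0.19 when single heifers were left out. The cause of these changes was not tested. No heifer was in both groups, so samples were not paired. Depth did not limit members, whose spread between heifers exceeded counting error.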
